A study of Mus musculus with 12 samples.

Results

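The collagen genes of kidney cortex are described here in the TRACK mouse, a model of clear cell renal cell carcinoma. Members were all rows of the deposited read count table whose Ensembl identifier maps to a symbol made of Col, a type number, the letter a and a chain number. The rule found 44 genes of 37681 in the table, of which 11 encode fibrillar collagens, 8 encode collagens of basement membranes and 25 encode other collagens. TG+ mice carry the TRACK/gamma-HIF1alphaM3 transgene, a constitutively active mutant HIF1α driven by the gamma-glutamyltransferase promoter in proximal tubules, and TG- mice are their wild type littermates on C57BL/6. All were untreated males, 18 months old by the study's methods, and the cortex slice holds every cell type of the cortex, not the proximal tubule alone. There were 3 TG+ mice (43-29, 43-49 and 43-75) and 3 TG- mice (43-26, 43-50 and 43-76), each with 1 library from each of 2 kidneys, and the 2 libraries of a mouse were summed because they share the animal. Values below follow these orders of mice.

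Collagens are secreted or membrane proteins built of 3 chains wound into a triple helix. Fibrillar collagens form the fibers of the interstitium, type IV chains form the sheet-like network under epithelium and endothelium, and the remaining types bind to fibrils, form beaded filaments or span cell membranes. In kidney the α1 and α2 chains of type IV are found in basement membranes throughout the organ, whereas the network of α3, α4 and α5 chains is that of the glomerular basement membrane. Fibrillar collagen made by fibroblasts accumulates in renal fibrosis. HIF1 binds DNA at the hypoxia response element, whose core reads ACGTG or GCGTG.

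Between 48052131 and 60506785 reads per mouse were counted on genes, and between 21888584 and 33704850 per library. Markers of proximal tubule, loop of Henle, podocytes and endothelium were present in every mouse. Markers of perirenal fat (Adipoq, Plin1, Cidec and Lep) were not spread evenly, with a sum of 20.9 CPM in 43-49, 15.3 in 43-75 and 5.36 in the TG- mouse 43-50, against 0.142 in 43-29, 0.117 in 43-26 and 0.0614 in 43-76. CPM is the read count scaled to a common normalized library size. Fat tissue is rich in fibroblasts, so results were also computed with the mice divided at 1 CPM of these markers, an alternative chosen after seeing the data.

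Of the 44 collagen genes, 8 held fewer than 50 reads over the 12 libraries and none of these had enough reads to be tested. They were the cartilage collagens Col2a1 (7 reads), Col11a1 (4), Col9a1 (3), Col9a2 (7), Col9a3 (44) and Col10a1 (11), and also Col22a1 (14) and Col28a1 (48). The 4 reads of Col11a1 all came from 43-75. The other 36 genes were tested, and 33 of them had enough reads in either group alone. Col25a1 passed the filter on low counts through the TG+ mice alone, and Col8a2 and Col17a1 through mice of both groups together.

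Basement membrane collagens were by far the most abundant class. In TG- mice they took up 84.9% ± 1.58 (SD, n = 3) of the summed collagen level on the deposited RPKM scale, against 8.24% ± 1.21 for fibrillar and 6.87% ± 0.393 for other collagens. The highest genes on that scale were Col4a1 (mean 27.1 RPKM, range over the TG- mice 25.4 to 30.3), Col4a3 (20.9, 19.1 to 22.9), Col4a2 (20.5, 18.8 to 22.8), Col4a4 (16.6, 16.0 to 17.3) and Col18a1 (8.32, 7.58 to 9.08), which encodes the proteoglycan collagen from which endostatin is cut. Col4a2 and Col4a3 did not differ beyond their ranges. The length behind these RPKM values could be traced for some genes only. For 15 of the 44 collagen genes the length behind them equalled the sum of the lengths of all annotated transcripts to within 1%. For 3 it equalled the longest transcript and for 1 the merged exons. Col10a1, with 1 annotated transcript, is in each of these counts. Levels were therefore also computed as CPM per kb of merged exons.

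On this second scale the share of basement membrane collagens in TG- mice was 80.9% ± 1.67 (SD, n = 3), that of fibrillar collagens 9.98% ± 1.69 and that of other collagens 9.11% ± 0.277. Col4a1 (mean 26.1, range 24.5 to 29.3), Col4a2 (24.9, 22.8 to 27.8), Col4a3 (24.1, 22.0 to 26.4), Col4a4 (23.2, 22.3 to 24.2) and Col18a1 (22.1, 20.1 to 24.1) were close. Each overlapped its neighbours in this order, and Col4a1 lay above the ranges of Col4a4 and Col18a1. Col4a5, the third chain of the glomerular network, followed at 6.06 CPM per kb and Col4a6 stood at 0.154. The highest fibrillar genes were Col27a1 (5.13, 3.90 to 6.92), Col1a1 (2.79, 2.12 to 3.61) and Col1a2 (2.53, 2.24 to 2.89). Col27a1 lay above the ranges of the other fibrillar genes, and Col1a1 and Col1a2 overlapped. In the same unit the highest of the other collagens were the fibril-associated Col14a1 (3.85) and the beaded filament chains Col6a1 (3.12) and Col6a3 (1.54).

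**Figure D1:**
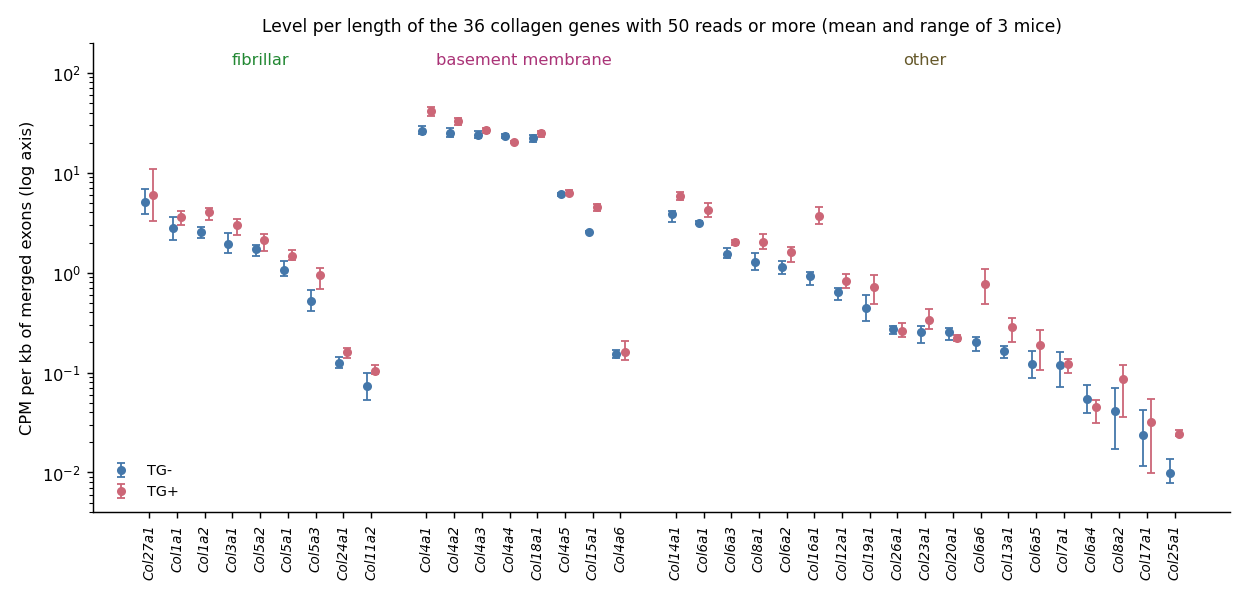
Level per length of the 36 collagen genes with at least 50 reads, as CPM per kb of merged exons on a log axis, by class. Points are means of 3 TG- (blue) or 3 TG+ (red) mice and bars the range over the mice. The bars of Col16a1, Col6a6 and Col15a1 stand apart between the groups, whereas those of Col27a1 overlap.

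The question was whether expression of the mutant HIF1α in proximal tubules goes with a different collagen transcript profile of the cortex. Col16a1 and Col6a6, both in the class of other collagens, passed the threshold of the study (adjusted p below 0.01 and fold change above 2 or below 0.5) with higher mRNA levels in TG+. That is 2 of 36 collagen genes tested, and 3.77% of all 19399 genes tested were called higher by the same rule. No collagen gene was called lower by edgeR's quasi-likelihood test or by DESeq2, and 0.211% of all genes were called lower. At an unadjusted p under 0.05, 18 collagen genes were higher (background 21.9%) and 1 was lower (background 17.2%). Without a limit on fold change, 6 collagen genes were higher at an adjusted p below 0.01 by edgeR (background 7.91%). None was lower by edgeR or DESeq2 (edgeR background 4.25%). The 6 became 12 with DESeq2, whose share over all genes at this limit was not computed, and 2 without 43-75 or without 43-76. Of the 36 genes, 32 had a log2 fold change above 0 (background 51.8%), and the median was 0.45 against 0.01 over all genes. The TG+ mice were wholly above the TG- mice in 14 genes (background 23.4%) and wholly below in 1, Col4a4 (background 20.8%). Without Col25a1, which needed the TG+ mice to be tested, the remaining 35 genes had a median of 0.44, 31 above 0, 13 wholly above and 17 higher at an unadjusted p under 0.05.

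The genes are not independent replicates, so these counts are descriptions. Summed over the 44 genes, collagen reads before normalization took up 0.172%, 0.174% and 0.173% of all reads in the TG+ mice and 0.137%, 0.127% and 0.120% in the TG- mice. On the normalized scale the sums were 1666, 1634 and 1672 CPM in TG+ and 1416, 1347 and 1237 CPM in TG-, with 1.24 times the level in TG+. All 3 TG+ mice were above all 3 TG- mice. Among TG- mice 43-76 was the lowest in 24 of the 36 genes and 43-26 the highest in 19. In bulk cortex, more cells of a type and more RNA per cell cannot be told apart.

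The summed levels of several marker lists differed between the groups as well. The summed level of 6 stroma markers was 195 to 256 CPM in TG+ and 131 to 152 in TG-, that of 6 endothelial markers 499 to 537 against 293 to 386, and that of 6 immune markers 135 to 140 against 80.7 to 88.8. The sums of the 6 proximal tubule markers had the opposite order, with 23322 to 26419 CPM in TG+ and 30538 to 32452 in TG-. The loop and collecting duct list overlapped (3480 to 4784 and 3814 to 3923). Of the 4 cartilage and bone markers 1 (Sost) had enough reads to be tested and Acan was at 0 reads in all mice, and the 4 urothelium markers summed to at most 0.797 CPM. The part of cell composition in the collagen results was not tested.

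**Figure D2:**
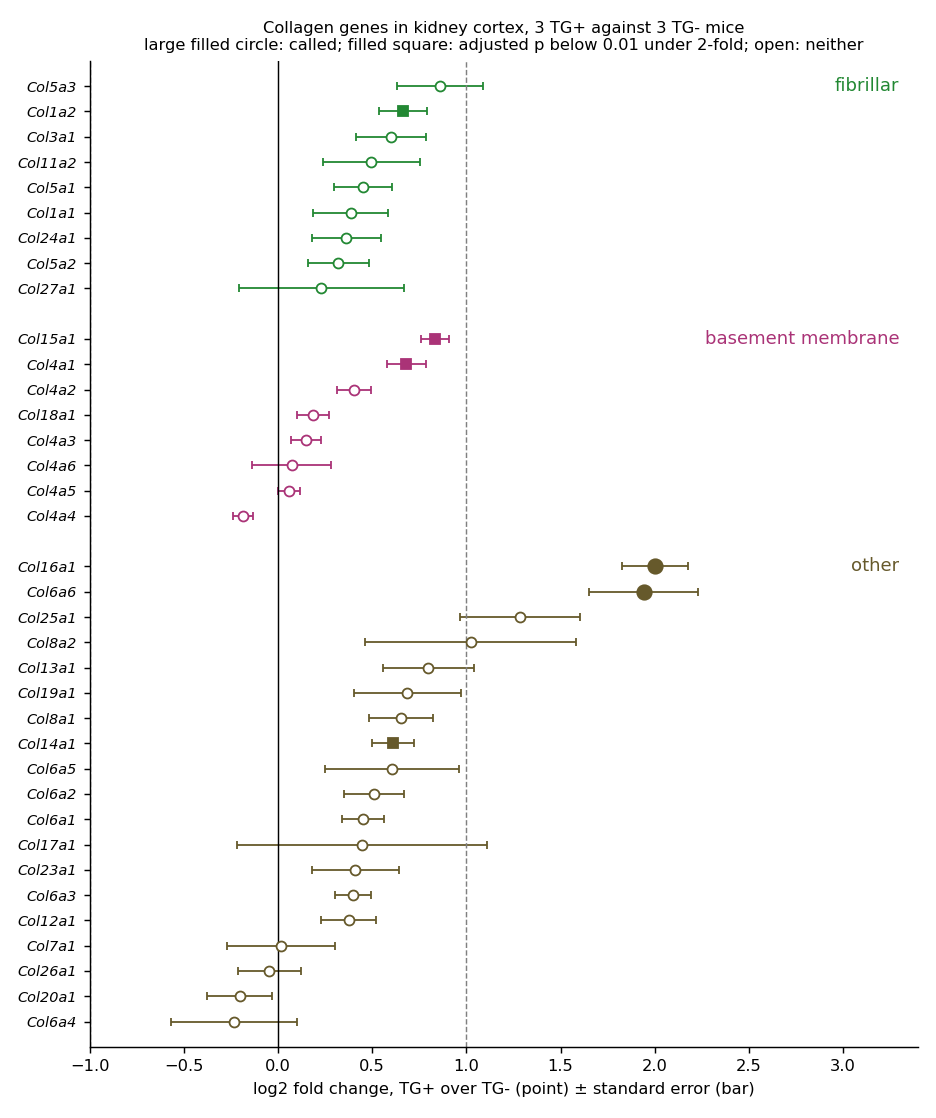
log2 fold change of TG+ over TG- for the 36 tested collagen genes by class, with bars for 1 standard error, 3 mice per group. Col16a1 and Col6a6 (large filled circles) lie near 2 and pass the threshold, 4 genes (filled squares) have an adjusted p below 0.01 with less than a 2-fold change, and the dashed line marks a 2-fold rise.

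Col16a1 encodes the chain of type XVI collagen, a minor fibril-associated collagen. It stood at 30.5, 20.5 and 23.6 CPM in TG+ mice and at 6.63, 6.92 and 5.03 CPM in TG- mice. Each TG+ mouse exceeded each TG- mouse, and the lowest of the 6 TG+ libraries (19.6 CPM) was well above the highest of the 6 TG- libraries (7.05). The fold change was 4.01 (log2 2.00, standard error 0.17, edgeR adjusted p = 0.000256). The gene lies on chromosome 4 from 130047840 to 130099283 (GRCm38, plus strand). It was called in all 15 alternative fits with 2 or more mice per group.

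Col6a6 encodes the α6 chain of type VI collagen, 1 of the 3 chains that can stand in place of α3. Its level was 9.99, 4.50 and 6.79 CPM in TG+ mice and 1.97, 1.51 and 2.07 CPM in TG- mice. The groups did not overlap, also by library (4.11 to 10.35 against 1.06 to 2.14 CPM), but the TG+ mice differed among themselves by more than 2-fold. The fold change was 3.84 (log2 1.94, standard error 0.29, edgeR adjusted p = 0.00289). The call was lost, with little change in the log2 fold change, without 43-75 (1.96, edgeR adjusted p = 0.0112), without 43-50 (1.81, 0.0131) or without 43-76 (2.03, 0.0135). Col6a6 lies on chromosome 9 from 105687809 to 105828160 (GRCm38, minus strand) and shares 63 exonic bases with Gm38314 on the opposite strand. Among the mice with fat markers below 1 CPM (43-29 against 43-26 and 43-76) and those above (43-49 and 43-75 against 43-50), the log2 fold changes were 2.38 and 1.67 for Col16a1, and 2.30 and 1.90 for Col6a6. Each of these comparisons has a single mouse in 1 group, so its values are given with no test.

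**Figure D3:**
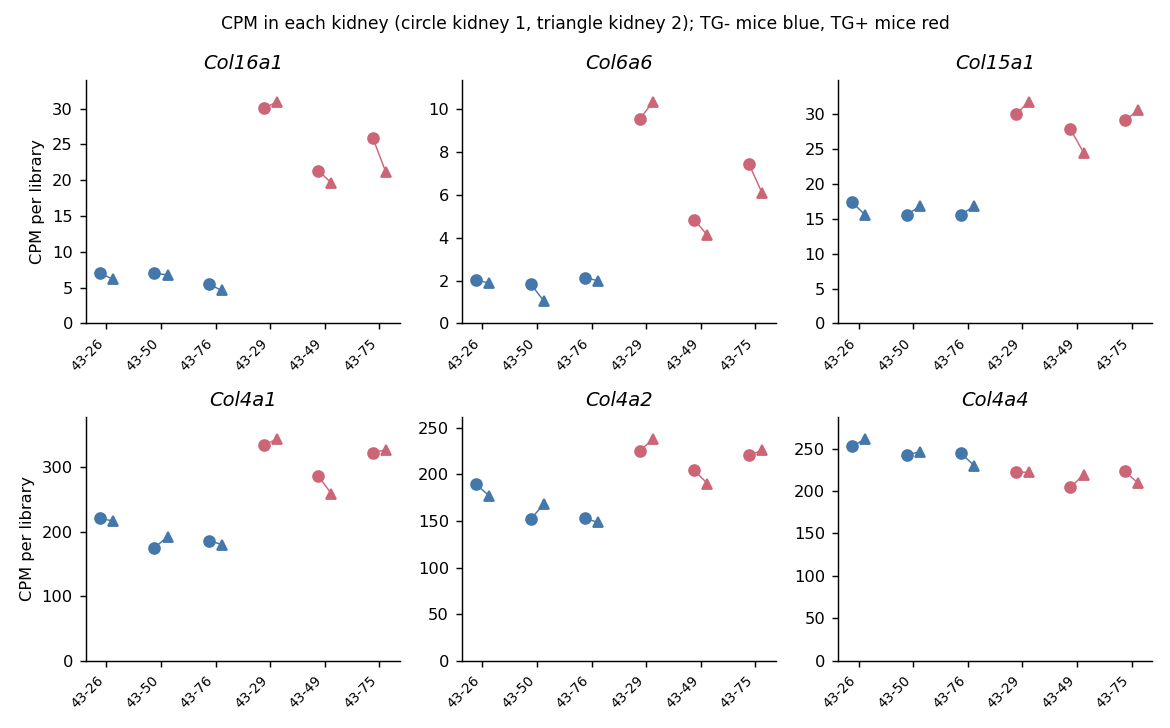
CPM of 6 collagen genes in each of the 12 libraries, with kidney 1 as a circle joined to kidney 2 as a triangle, TG- mice in blue and TG+ mice in red. In each of the 6 panels the TG+ libraries lie wholly above the TG- libraries, except for Col4a4, where they lie wholly below.

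The start regions of the 2 called genes are shown because HIF1 acts on promoters, and those of Col4a1 and Col4a4 because each also holds the start of the neighbouring type IV gene. Sequences are from RefSeq on GRCm38.p6, run 5′ to 3′ on the strand of the named gene from 250 bases before to 50 bases after its start, and capitals mark ACGTG or GCGTG on either strand.
Col16a1, chr4:130047590-130047889, plus strand: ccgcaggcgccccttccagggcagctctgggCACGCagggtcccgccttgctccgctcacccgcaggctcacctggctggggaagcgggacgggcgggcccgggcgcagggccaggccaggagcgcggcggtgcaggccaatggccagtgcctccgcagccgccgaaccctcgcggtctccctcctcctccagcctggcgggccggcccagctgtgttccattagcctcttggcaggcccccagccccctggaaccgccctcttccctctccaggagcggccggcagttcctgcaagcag
Col6a6, chr9:105828036-105828335, minus strand: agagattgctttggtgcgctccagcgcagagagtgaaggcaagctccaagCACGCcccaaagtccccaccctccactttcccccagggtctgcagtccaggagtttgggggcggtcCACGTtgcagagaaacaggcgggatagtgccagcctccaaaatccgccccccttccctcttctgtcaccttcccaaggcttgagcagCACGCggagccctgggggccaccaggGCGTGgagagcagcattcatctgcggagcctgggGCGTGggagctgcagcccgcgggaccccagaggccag
Col4a1, chr8:11312777-11313076, minus strand: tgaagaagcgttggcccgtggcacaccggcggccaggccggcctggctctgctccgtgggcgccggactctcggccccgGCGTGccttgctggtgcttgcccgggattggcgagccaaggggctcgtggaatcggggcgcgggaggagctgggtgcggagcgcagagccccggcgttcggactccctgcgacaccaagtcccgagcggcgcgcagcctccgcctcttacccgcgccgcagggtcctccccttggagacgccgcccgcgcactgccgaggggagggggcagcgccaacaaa
Col4a4, chr1:82586800-82587099, minus strand: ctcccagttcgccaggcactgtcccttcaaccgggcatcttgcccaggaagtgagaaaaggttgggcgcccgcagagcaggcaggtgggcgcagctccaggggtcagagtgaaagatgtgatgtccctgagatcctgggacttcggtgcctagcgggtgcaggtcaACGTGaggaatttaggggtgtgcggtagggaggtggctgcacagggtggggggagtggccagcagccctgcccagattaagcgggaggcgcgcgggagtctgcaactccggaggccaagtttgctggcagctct
The window of Col16a1 held 1 GCGTG and no ACGTG, and that of Col6a6 held 4 GCGTG and 1 ACGTG. The 2 motifs share their last 4 bases but cannot occupy the same position on 1 strand, and were counted apart. ACGTG was found in 5 of the 38 windows of 35 collagen genes (13.2%) and in 19.6% of all 32851 windows, and GCGTG in 10 of 38 (26.3%) and in 32.4% of all. The genes with ACGTG were Col1a2, Col5a1, Col11a2, Col4a4 and Col6a6. These matches are a description of the sequence and say nothing about binding.

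The basement membrane class had no gene past the threshold by edgeR or DESeq2, but 2 of its 8 genes were higher at an edgeR adjusted p below 0.01 (7.91% of all genes). At an unadjusted p under 0.05, 3 were higher (21.9% of all) and 1 was lower (17.2%). The median log2 fold change was 0.17. Its summed level was 1327, 1160 and 1297 CPM in TG+ and 1151, 1038 and 987 CPM in TG-, with 1.19 times the level in TG+. Without Col4a1 the sums were 988, 887 and 973 CPM against 932, 855 and 805 CPM, which overlapped. The members did not move alike.

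Col4a1 encodes the α1 chain of the ubiquitous type IV network. It stood at 339, 273 and 324 CPM in TG+ mice and at 219, 183 and 183 CPM in TG- mice. The groups did not overlap in mice or in libraries, and TG+ was higher by 0.68 on the log2 scale (standard error 0.10, edgeR adjusted p = 0.00316). Its partner chain Col4a2 stood at 232, 197 and 223 CPM in TG+ and at 184, 159 and 151 CPM in TG-. The groups were again apart, with a smaller log2 fold change of 0.40 (standard error 0.09, edgeR adjusted p = 0.0159), which did not pass 0.01. The adjusted p of Col4a2 was below 0.01 in 6 of the 15 alternative fits, with a range from 0.000619 (limma voom) to 0.0625. For Col4a1 the edgeR adjusted p was above 0.01 without 43-29 (0.0108), 43-75 (0.0159), 43-50 (0.0134) or 43-76 (0.0183), and the log2 fold change was 0.75 among the mice with fat markers below 1 CPM and 0.70 among those above.

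The 3 chains of the glomerular network behaved otherwise. Col4a3 was at 278, 248 and 272 CPM in TG+ and at 263, 238 and 219 CPM in TG-, so the groups overlapped (log2 fold change 0.15, edgeR adjusted p = 0.209). Col4a4 was at 222, 211 and 216 CPM in TG+ and at 257, 244 and 237 CPM in TG-. It was the 1 collagen gene with all TG+ mice and all TG+ libraries below those of TG-, at a log2 fold change of -0.19 (standard error 0.05, edgeR adjusted p = 0.0403). This did not pass 0.01, passed it in limma voom with each kidney as a library (-0.18, adjusted p = 0.0095, range over 15 alternative fits 0.0095 to 0.374) and narrowed to -0.066 with scaling by library size alone. The 5 podocyte markers, from the cells that make the glomerular network, summed to 542 to 631 CPM in TG+ and 412 to 495 CPM in TG-. Most of that sum was Podxl (mean 346 CPM in TG+ and 268 in TG-). Of the 5 markers 4 were higher at an unadjusted p under 0.05 (21.9% of all genes) and 0 at an adjusted p below 0.01. Nphs1 overlapped (log2 fold change 0.13, edgeR adjusted p = 0.52). The part of podocyte content in these values was not tested. Col4a5 differed by 0.06 on the log2 scale (edgeR adjusted p = 0.517) and the low Col4a6, a chain of Bowman's capsule and smooth muscle, by 0.07 with a sign that changed between alternatives.

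Col4a1 (chromosome 8, 11198423 to 11312826, minus strand) and Col4a2 (11312805 to 11449287, plus strand), and Col4a3 (chromosome 1, 82586921 to 82722059, plus strand) and Col4a4 (82448423 to 82586849, minus strand), are head-to-head pairs on GRCm38 whose annotated starts lie 21 and 72 bases apart, so that the printed window of Col4a1 holds the start of Col4a2 and that of Col4a4 the start of Col4a3. The read ratio within a pair does not depend on normalization. Col4a1 had 1.46, 1.38 and 1.45 reads per read of Col4a2 in TG+ mice and 1.19, 1.15 and 1.21 in TG- mice. Col4a3 had 1.25, 1.18 and 1.26 reads per read of Col4a4 in TG+ and 1.02, 0.972 and 0.925 in TG-. Both ratios were higher in every TG+ library than in every TG- library, by 0.27 and 0.34 on the log2 scale. Each difference had the smallest 2-sided p that an exact permutation test of 3 against 3 mice can give (0.1, adjusted 0.3 over the 6 chain ratios compared).

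The third pair, Col4a5 and Col4a6 on chromosome X, with starts 1309 bases apart, had 36.4, 24.8 and 41.7 reads of Col4a5 per read of Col4a6 in TG+ and 33.6, 31.3 and 34.8 in TG-. Those groups overlapped. Col1a1 had 0.467, 0.456 and 0.518 reads per read of Col1a2 in TG+ and 0.567, 0.659 and 0.5004 in TG- (exact permutation p = 0.2), and the ratios of Col6a1 to Col6a2 (p = 0.7) and Col5a1 to Col5a2 (p = 0.8), by the same test, overlapped more widely. Col4a1 and Col4a2 share 22 exonic bases, and Col4a3 shares 563 with the antisense gene C430014B12Rik. Reads from these bases cannot be assigned to 1 gene, since the handling of strand is not given in the sources used here.

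**Figure D4:**
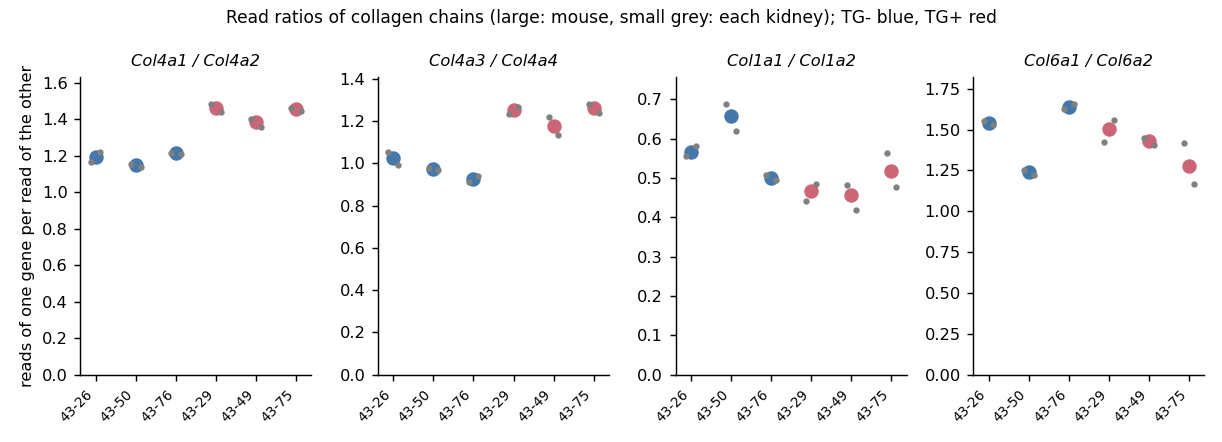
Reads of one collagen gene per read of its partner in each mouse (large points, 2 kidneys summed) and each kidney (small grey points), TG- in blue and TG+ in red, on axes that start at 0. The TG+ mice lie above the TG- mice for Col4a1 to Col4a2 and Col4a3 to Col4a4 and overlap them for Col6a1 to Col6a2.

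Outside type IV, Col15a1 had the smallest standard error of the tested collagen genes. The gene encodes type XV collagen, which links basement membranes of vessels and muscle to the stroma. Its level was 31.0, 26.2 and 29.8 CPM in TG+ mice and 16.5, 16.1 and 16.2 CPM in TG- mice. No library of one group came near the other (24.5 to 31.8 against 15.6 to 17.4 CPM), and the log2 fold change of 0.83 (standard error 0.07, edgeR adjusted p = 0.000292) fell short of the 2-fold limit. The adjusted p stayed below 0.01 in the same 15 alternative fits. Its relative Col18a1 was at 182, 162 and 185 CPM in TG+ and at 169, 155 and 141 CPM in TG-, which overlapped (log2 fold change 0.19, edgeR adjusted p = 0.141).

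In the fibrillar class no gene of 9 tested passed the threshold by edgeR or DESeq2, and 4 were higher at an unadjusted p under 0.05 (21.9% of all genes). The median log2 fold change was 0.45, with all 9 above 0 (51.8% of all genes). Col1a2, the second chain of type I collagen, was the 1 fibrillar gene at an adjusted p below 0.01 by edgeR (7.91% of all genes). With DESeq2, Col3a1 and Col5a3 were below it too (adjusted p = 0.00609 and 0.00195). Col1a2 stood at 41.7, 54.7 and 52.7 CPM in TG+ mice and at 30.4, 35.9 and 27.8 CPM in TG- mice, with a log2 fold change of 0.66 (standard error 0.13, edgeR adjusted p = 0.0078). The groups did not overlap, and the adjusted p was above 0.01 without 43-26, 43-49, 43-75 or 43-76 (edgeR adjusted p between 0.0245 and 0.0332). In kidney 1 alone it was also above 0.01 (edgeR adjusted p = 0.0282). With the fat markers as a term in the fit the log2 fold change was 0.55 (edgeR adjusted p = 0.00105).

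Col1a1, the other chain of type I collagen, was at 19.4, 25.0 and 27.3 CPM in TG+ and at 17.3, 23.7 and 13.9 CPM in TG-. The TG- mouse 43-50 lay above the TG+ mouse 43-29, and the log2 fold change of 0.39 (standard error 0.20) had an edgeR adjusted p of 0.191. Col3a1, which forms fibers together with type I, was at 23.5, 30.3 and 33.4 CPM in TG+ and at 17.8, 24.4 and 15.3 CPM in TG-. Again 43-50 lay above 43-29 (log2 fold change 0.60, standard error 0.19, edgeR adjusted p = 0.0493). The adjusted p of Col3a1 was below 0.01 in 2 of the 15 alternative fits, with DESeq2 (0.00609) and with the fat markers as a term (log2 fold change 0.44, 0.00897), and ranged up to 0.15, while that of Col1a1 ranged from 0.0426 to 0.447 (0.135 with the fat term). In both genes, and in Col1a2, the mice with fat markers above 1 CPM were the higher ones within their genotype. The log2 fold change of Col1a1 was 0.31 within the mice below 1 CPM and 0.14 within those above, and that of Col3a1 was 0.50 and 0.38. The part of attached fat in these values was not tested.

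Col27a1, a fibrillar collagen known from cartilage, was the most abundant of the class and the least even. It stood at 43.0, 141 and 50.9 CPM in TG+ mice and at 50.7, 90.2 and 59.6 CPM in TG- mice. The highest mouse, 43-49, was high in both kidneys (128 and 156 CPM), and the TG- mouse 43-50 came next (88.7 and 91.8 CPM). In TG+, 43-29 lay below all TG- mice and 43-75 at their lowest value. The summed loop and collecting duct markers were also highest in 43-49 (4784 CPM) and then 43-50 (3923), against 3480 to 3829 in the other mice. Their part in Col27a1 was not tested. The log2 fold change was 0.23 (standard error 0.44, edgeR adjusted p = 0.743), and without 43-49 it was -0.51 (edgeR adjusted p = 0.158). The summed fibrillar level of 172, 291 and 203 CPM in TG+ and 151, 201 and 147 CPM in TG- rested on that mouse in part. Without Col27a1 the sums were 129, 150 and 152 CPM against 100.1, 111 and 87.1 CPM, and the groups were apart.

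**Figure D5:**
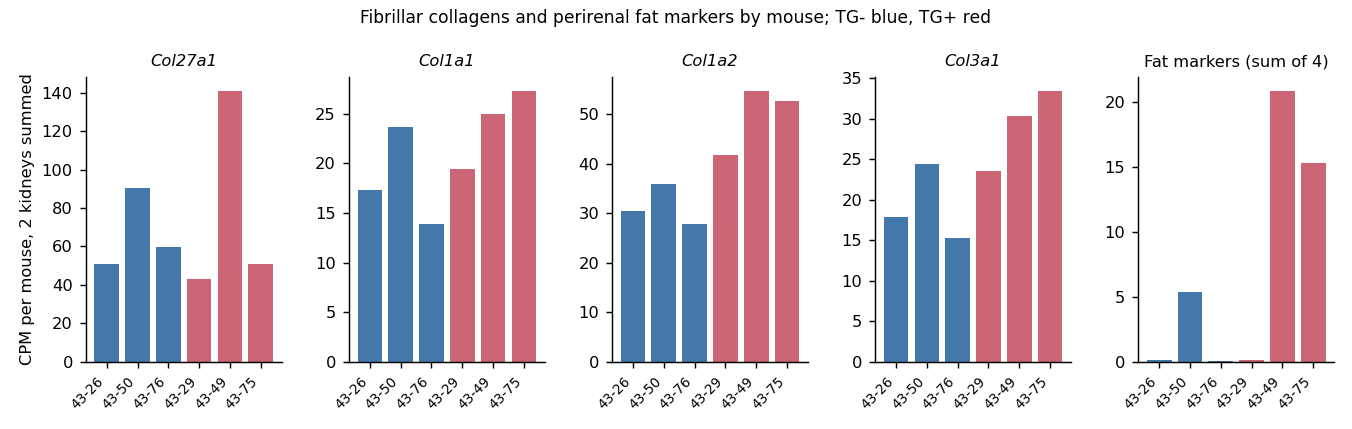
CPM per mouse of 4 fibrillar collagen genes and the summed CPM of 4 perirenal fat markers, TG- mice in blue and TG+ mice in red, as bars from 0. The bar of 43-49 is the highest for Col27a1 at 141 CPM, followed by 43-50 at 90.2 CPM, and the fat markers are seen in 43-50, 43-49 and 43-75.

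The minor fibrillar chains regulate fibril diameter. Col5a3 had the highest log2 fold change of the class at 0.86 (standard error 0.23, edgeR adjusted p = 0.029), with 7.56, 4.71 and 6.89 CPM in TG+ and 4.56, 3.17 and 2.80 CPM in TG-. Its adjusted p was below 0.01 in 3 of the 15 alternative fits (DESeq2 0.00195, limma voom 0.00426, edgeR with a replicate block 0.00921) and ranged up to 0.097. Its partner chains Col5a1 and Col5a2 differed by 0.45 and 0.32 on the log2 scale, and the low Col11a2 and Col24a1 by 0.50 and 0.36, each with an edgeR adjusted p above 0.05.

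The class of other collagens held the widest spread, with 19 genes tested, a median log2 fold change of 0.51 and values from -0.24 to 2.00. In the 5 fibril-associated collagens tested, Col14a1, which decorates fibers of dense connective tissue, joined Col16a1 at an adjusted p below 0.01 (7.91% of all genes). It was at 37.0, 44.5 and 42.1 CPM in TG+ mice and at 29.2, 22.8 and 29.0 CPM in TG- mice, with no overlap (log2 fold change 0.61, standard error 0.11, edgeR adjusted p = 0.00653). The adjusted p was above 0.01 when any mouse but 43-29 was left out (edgeR adjusted p between 0.0114 and 0.0271). It was also above 0.01 in kidney 1 alone (edgeR adjusted p = 0.0600), and below it in 8 of the 15 alternative fits. Among the mice with fat markers below 1 CPM the log2 fold change was 0.34 and among those above it was 0.92. Col12a1 (0.37) and Col19a1 (0.69) were not past 0.05 after adjustment, and Col20a1 was at -0.20 on the log2 scale (edgeR adjusted p = 0.431).

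The beaded filaments of type VI collagen are built of α1, α2 and an α3-like chain. Col6a1 was at 15.9, 21.7 and 18.5 CPM in TG+ and at 14.3, 13.5 and 13.3 CPM in TG- (log2 fold change 0.45, standard error 0.11, edgeR adjusted p = 0.0217). Its groups did not overlap, nor did those of Col6a3, whose log2 fold change was 0.40 (edgeR adjusted p = 0.019), and Col6a2 was at 0.51 (0.0481) with overlap. Thus the 3 abundant chains differed by 0.40 to 0.51 on the log2 scale beside 1.94 for the low Col6a6. The other α3-like chains showed no such difference beyond their spread, with 0.60 for Col6a5 (standard error 0.36) and -0.24 for Col6a4 (standard error 0.33).

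Col8a1, a short network collagen of vessel walls, was the highest of the other collagens by deposited RPKM. It was at 13.5, 18.9 and 14.8 CPM in TG+ and at 9.38, 12.3 and 8.35 CPM in TG- (log2 fold change 0.65, standard error 0.17, edgeR adjusted p = 0.0261). The groups did not overlap, although the lowest TG+ library (12.88) and the highest TG- library (12.86) nearly met. Col8a2 and the anchoring fibril gene Col7a1 held few reads, with differences of 1.02 (standard error 0.56) and 0.01 on the log2 scale.

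Of the 4 transmembrane collagens, Col25a1 had 17, 17 and 15 reads in TG+ mice and 9, 6 and 5 in TG- mice. It was tested only because the TG+ mice reached the filter, so no p is given. Col13a1 was at 1.42, 1.60 and 0.936 CPM in TG+ and at 0.858, 0.648 and 0.778 CPM in TG- (log2 fold change 0.80, edgeR adjusted p = 0.044). Col23a1 (0.41) and Col17a1 (0.44) overlapped between groups. Col26a1, of the remaining types, overlapped too at -0.05, and its sign turned with scaling by library size alone (0.075).

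Genes that make, modify, bind or break down collagen were read from lists. Of 29 genes tested for collagen synthesis and processing, 6 were called higher by edgeR (3.77% of all genes) and 7 by DESeq2. Over all 19399 genes DESeq2 called 820 higher and edgeR 732. The 6 were the prolyl hydroxylases P4ha1 (log2 fold change 1.87) and P4ha2 (2.26), the lysyl hydroxylases Plod1 (1.69) and Plod2 (3.396), and the lysyl oxidases Loxl2 (2.27) and Loxl4 (1.16). The summed level of the list was 2411 to 2610 CPM in TG+ and 1587 to 1707 CPM in TG-. Its lowest value was that of Mia3, a gene for export of procollagen from the endoplasmic reticulum, at -0.26 (edgeR adjusted p = 0.00882). P4ha3 had too few reads.

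Of 9 collagen receptors tested 0 were called by edgeR or DESeq2, with 6 higher at an unadjusted p under 0.05 (21.9% of all genes). The largest difference was that of Ddr2, a receptor kinase for fibrillar collagen, at 0.89 on the log2 scale (edgeR adjusted p = 0.00757), and the smallest that of Itga10 at 0.08. Of 8 genes of collagen degradation tested, Mmp9 (1.503) and Mmp13 (1.40) were called higher (3.77% of all genes), at means of 1.88 and 3.84 CPM in TG+, and the abundant inhibitor Timp3 had the lowest value (-0.40, edgeR adjusted p = 0.0145). In the list of non-collagen basement membrane genes, 1 of 15 was called higher, near the share over all genes (3.77%), the laminin chain Lama4 (1.11), and Lama1 was lowest (-0.55, edgeR adjusted p = 0.0147). Among 11 interstitial partners Fn1, which encodes fibronectin, was the 1 gene called higher by edgeR (1.26, beside 3.77% of all genes). DESeq2 called 2, beside 820 of all 19399 genes. Fmod had the largest difference (1.62, edgeR adjusted p = 0.0139), and Tnc had the smallest (0.18).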

How the data were processed

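RNA of a thin slice of kidney cortex was sequenced by the authors as 51-bp single-end reads (TruSeq libraries) and analysed mainly with the Tuxedo tools. The submitters' processing notes name the build mm9, and the annotation, counting program and strand handling are not given in the sources used here. The authors deposited read counts per Ensembl gene and library without normalization, and RPKM values, which by their values were scaled after 1 was added to each count and were used here for levels between genes. The log2 values deposited by the authors are the log2 of those RPKM values and were not used, and neither were the deposited comparison columns (fold change, p and q values).

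Symbols and positions came from GENCODE M21 (GRCm38), matched by identifier for 32642 of 37681 genes, and promoter windows from RefSeq. The members, classes, gene lists and named genes were chosen with earlier results of these data known. By rule, called members and the 3 highest of each class by RPKM in TG- are given per mouse, and of the other lists the called genes and the largest rise and fall. Further members (Col4a4, Col15a1, Col1a2, Col5a3, Col13a1, Col18a1, Col25a1), the chain ratios and the fat marker split were chosen after their values were seen.

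Counts of 2 kidneys were summed per mouse, filtered with filterByExpr (minimum count 10), normalized by TMM (factors 0.944 to 1.07) and fitted in R 4.3.3 with limma 3.58.1 and edgeR 4.0.16, whose quasi-likelihood test was run over 19399 genes with Benjamini-Hochberg adjustment. The procedure was tested on simulated data. Single values were compared with exact 2-sided permutation (20 ways to assign 3 of 6 mice, smallest p 0.1). Each p is set against the spread between mice, except that of limma voom. That fit took the 12 libraries with 1 estimated correlation between kidneys of a mouse, so its p mixes both spreads. In edgeR, limma and DESeq2 the spread of a gene is estimated partly from other genes. Alternatives were DESeq2 1.42.0, upper-quartile and library-size scaling, no filter, single kidneys, limma voom with mouse as random block, a replicate block, each mouse left out, other thresholds, and the added ones. Tables and plots were made in Python 3.11.15 (pandas 2.3.3, numpy 2.4.6, scipy 1.17.1, matplotlib 3.10.9).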

Additional observations from a re-analysis of the deposited data

Results flagged for a closer look

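In 7 of 72 groups of 6 libraries (36 collagen genes in 2 genotypes) 1 library lay far from the others, with its gap to the nearest library over 0.625 of the whole range (Dixon's criterion). Chance flags about 1 in 20 groups, and the 2 libraries of a mouse are not independent. Highest in TG- were Col17a1 in kidney 2 of 43-26 (0.36 CPM), Col5a1 in kidney 1 of 43-26 (13.0 CPM, next 9.05), Col6a1 in kidney 1 of 43-26 (14.9 CPM, next 13.7) and Col6a5 in kidney 1 of 43-50 (2.05 CPM, next 1.12). Highest in TG+ was Col4a5 in kidney 1 of 43-75 (47.0 CPM, next 42.5). Lowest were Col6a4 in kidney 2 of 43-49 in TG+ (0.15 CPM, next 0.368) and Col6a6 in kidney 2 of 43-50 in TG- (1.06 CPM, next 1.86). The last of these is a library of a mouse without which the call of Col6a6 was lost.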

How the results depend on the processing

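The number of collagen genes called higher was 2, and stayed at Col16a1 and Col6a6 with DESeq2, with upper-quartile scaling, with scaling by library size alone (which moved the median of all genes to 0.13), without a filter, in kidney 1 or kidney 2 alone, with limma voom, and with the fat markers as a term. It was 1 or 2 when a mouse was left out, 1 at an adjusted p below 0.001, 6 without a limit on fold change and 1 at a fold change above 4. The 6 genes at an adjusted p below 0.01 became 2 without 43-75 or without 43-76, 3 without 43-50 and 4 without 43-49. With all 6 mice kept, they became 4 in kidney 1 alone and 7 in kidney 2 alone. With DESeq2 they became 12, adding Col3a1, Col4a2, Col5a3, Col6a1, Col6a3 and Col8a1. DESeq2 also called more genes higher over the whole table (820 against 732 by edgeR). Fewer mice were fitted where 1 was left out. The number called lower was 0 in every alternative run. The median log2 fold change of 0.45 was 0.57 with scaling by library size alone and 0.31 within the mice below 1 CPM of fat markers, and the cause was not tested. In a paired fit with a replicate block of the 3 mouse pairs in the deposited table's name, 2 genes were called higher and the median was 0.45, while the genes at an adjusted p below 0.01 went from 6 to 8 (Col4a2, 0.00697, Col5a3, 0.00921, and Col8a1, 0.00278, gained, and Col14a1, 0.0107, lost). The sources do not say what a pair shares. Deviations from the group means correlated at 0.31, 0.28 and -0.06 within the pairs, and 43-75 correlated best with 43-50, of another pair. The share of collagen level in TG- moved from 84.9% to 80.9% for basement membrane, 8.24% to 9.98% for fibrillar and 6.87% to 9.11% for other collagens with the length of merged exons, by construction of that length. Of the log2 fold changes of single members in alternative fits with 2 or more mice per group, 513 kept direction and call, 3 (all Col6a6) lost the call and 15 reversed sign, all with an adjusted p above 0.05. Reversed, the untested splits by fat markers included, were Col26a1 with library size alone (0.075), in kidney 1 (0.082) and above 1 CPM of fat markers (0.20), Col4a6 in kidney 2 (-0.084), with the fat term (-0.0035) and below 1 CPM (-0.066), Col7a1 in kidney 2 (-0.12) and above 1 CPM (-0.16), Col6a4 above 1 CPM (0.10), and Col27a1 with the fat term (-0.13) and below 1 CPM (-0.37). With a mouse left out, values ran from -0.12 to 1.15 for Col17a1, -0.21 to 0.040 for Col26a1, -0.51 to 0.51 for Col27a1, -0.16 to 0.17 for Col4a6, -0.43 to 0.060 for Col6a4 and -0.24 to 0.27 for Col7a1. The log2 difference of the Col4a5 to Col4a6 ratio ran from -0.15 to 0.23 and was -0.11 in kidney 1, that of Col6a1 to Col6a2 from -0.18 to 0.020 and that of Col5a1 to Col5a2 from -0.14 to 0.32. With 3 mice per group a permutation test cannot go below 0.1, and genes under 100 reads, such as Col25a1, Col17a1 and Col8a2, are limited by counting error.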
